A study of Saccharomyces cerevisiae with 6 samples.

Results

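ASK10 (YGR097W), its paralog RGC1 (YPR115W) and the glycerol channel gene FPS1 (YLL043W) were followed across 3 strains of the budding yeast Saccharomyces cerevisiae. The members were taken by locus tag, and all 3 were found among the 6032 genes listed in the deposited tables. In one strain ASK10 carried the M475R substitution (M475R), in another the gene was deleted (deletion), and the last had wild-type ASK10 (WT). All were grown in a medium labelled Sc-ura, a common name for synthetic complete medium without uracil, with 20 g/l glucose, and the gene identifiers carry the strain name CEN.PK113-7D. RNA-seq values were analysed for 5 of the 6 samples. These were both M475R samples, both WT samples and the second deletion sample, the first deletion sample being not analysed here. The labels do not say whether replicates were separate cultures or whether each strain was 1 clone.

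Fps1 is a channel of the plasma membrane through which glycerol leaves the yeast cell. When the medium turns hyperosmotic the channel closes and glycerol is kept inside as an osmolyte, and on a shift to low osmolarity it opens. Ask10, also called Rgc2, and Rgc1 are related proteins that bind Fps1 and keep it open, and the MAP kinase Hog1 phosphorylates them and displaces them from the channel under hyperosmotic stress. Ask10 was also described as an activator of the transcription factor Skn7 and as a protein needed for the destruction of cyclin C under oxidative stress.

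Depth set the precision of every value. Total expected counts were 4155203 in M475R replicate 1 and 51576 to 117680 in the other 4 libraries, so M475R replicate 1 was 35.3 to 80.6 times as deep. The counts of the M475R replicates agreed within sampling noise (chi-square per degree of freedom 1.03, p = 0.168, over 2876 genes), as did those of the WT replicates (1, p = 0.436, over 2001 genes), and each pair was counted as 1 sample. The fit across all genes used the libraries singly, and a p-value here speaks of libraries rather than strains. Levels are given as CPM, counts scaled to a library size of 1000000, relative to library sizes after TMM scaling, with exact 95% Poisson intervals. Counting error is all that these intervals and the exact intervals of ratios and shares cover, not variation between cultures or libraries. Reads were amplified by PCR, which the intervals do not take into account. Markers of mating type a gave 933 to 1190 CPM when summed over 7 genes, of which 0 to 4 were at 0 in a library, and 3 markers of mating type alpha gave 21.3 to 86.1 CPM. STE2, STE6 and BAR1 carried most of the mating type a sum, while MFA1 and MFA2 had 1 and 3 counts in M475R replicate 1 and 0 elsewhere. Of the markers, 3 of mating type a, 0 of mating type alpha and 5 of haploid cells could be tested. None of them was called in any comparison. Over all tested genes 10.3% were called for M475R versus deletion, 18.6% for M475R versus WT and 0.688% for deletion versus WT.

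ASK10, the deleted gene, was read in every M475R and WT library and in none of the reads of the deletion library. It had 567 and 4 counts in M475R replicates 1 and 2, 0 counts in the deletion library, and 5 and 7 counts in WT replicates 1 and 2. These counts were 148 CPM (136 to 161) and 60.2 CPM (16.4 to 154) in M475R, 0 CPM (up to 35.1) in the deletion, and 53.8 CPM (17.5 to 126) and 149 CPM (59.8 to 307) in WT. The M475R and WT ranges overlapped, except that M475R replicate 1 (136 to 161) lay above WT replicate 1 (17.5 to 126). The value of the deletion library lay below all of them, but its range reached into those of M475R replicate 2 and WT replicate 1. In RNA from whole cultures, fewer cells with a transcript and less of it per cell cannot be told apart. At the M475R level the deletion library would have held 15.4 counts, and at the WT level 9.01.

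With the deletion library set at a floor of 3 counts, ASK10 was 5.14-fold higher in M475R. The floor is a convention and gives no lower limit. The exact 95% lower limit, which also takes in the counting error of the M475R libraries, was 4.17. On the same floor ASK10 was 3-fold lower in the deletion than in WT. The exact interval of the ratio of deletion to WT ended at 0.479. Across all genes, 10.3% of 2909 were called for M475R versus deletion and 0.688% for deletion versus WT (edgeR quasi-likelihood test, Benjamini-Hochberg adjusted p under 0.05). ASK10 passed as higher in M475R than in the deletion (adjusted p = 1.74e-06). It also passed as lower in the deletion when set against WT (adjusted p = 0.0397), where 0.206% of the genes were called lower. The call against the deletion was lost without M475R replicate 1 (adjusted p = 0.461, range over 9 alternatives 1.38e-06 to 0.461). The call against WT was lost without M475R replicate 1 (0.56) or WT replicate 2 (0.372), with a range of 0.0346 to 1.0 over 10 alternatives.

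**Figure D1:**
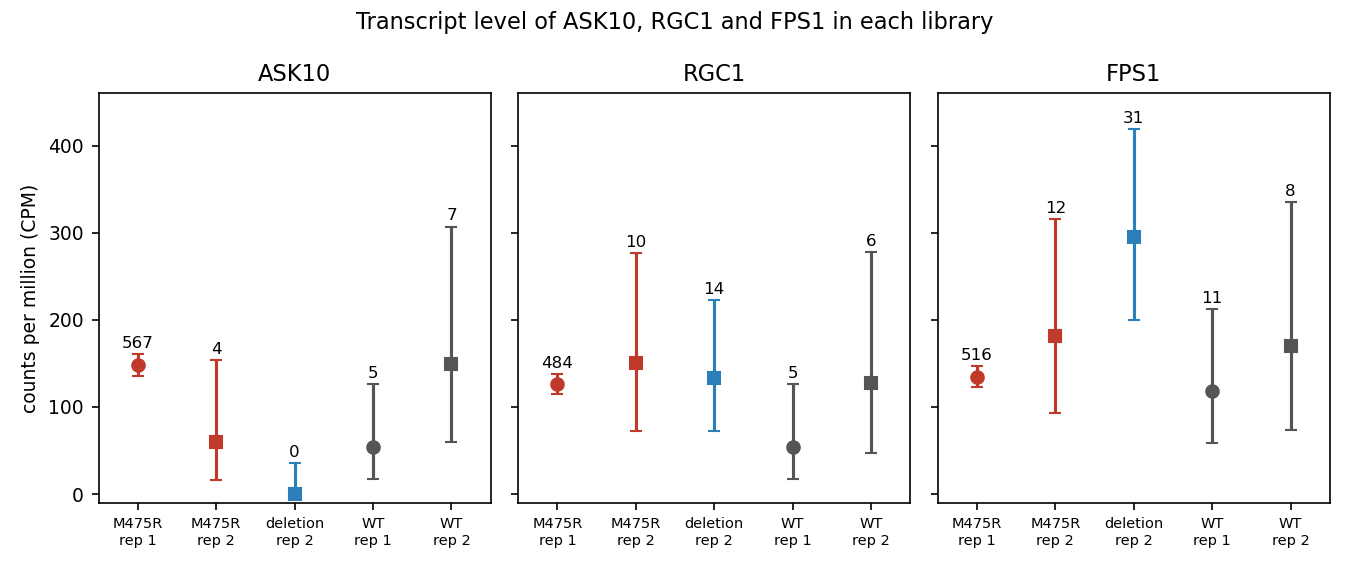
Transcript level in CPM for ASK10, RGC1 and FPS1 in each library (red M475R, blue deletion, grey WT; circles replicate 1, squares replicate 2), with exact 95% Poisson intervals and the expected count written above each. ASK10 stands at 0 in the deletion library, whereas FPS1 has its highest value there, 295 CPM.

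The M475R allele was transcribed at a level that could not be told apart from that of wild-type ASK10 at this depth. The pooled ratio of M475R to WT was 1.71, with a 95% interval of 0.972 to 3.33. On the log2 scale the fold change was 0.77 ± 0.38 (SE), which did not pass (adjusted p = 0.163) in a comparison in which 18.6% of 2909 genes were called. All 3 members missed the threshold there by edgeR, and 1 of them, ASK10, had an unadjusted p under 0.05, at 0.0443. Taken against single libraries, M475R replicate 1 stood at 2.75 times WT replicate 1 (1.17 to 8.51) and at 0.996 times WT replicate 2 (0.48 to 2.49). M475R replicate 2 stood at 1.12 times WT replicate 1 (0.222 to 5.2) and at 0.405 times WT replicate 2 (0.0869 to 1.59). The direction thus differed with the library pair, and the estimate turned to -0.53 on the log2 scale without M475R replicate 1 and to -0.01 without WT replicate 1.

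RGC1, the paralog that remains in the deletion strain, did not pass the test in any comparison. It had 484 and 10 counts in M475R replicates 1 and 2, 14 counts in the deletion library, and 5 and 6 counts in WT replicates 1 and 2. The levels were 126 CPM (115 to 138) and 151 CPM (72.2 to 277) in M475R, 133 CPM (72.8 to 223) in the deletion, and 53.8 CPM (17.5 to 126) and 128 CPM (46.8 to 278) in WT. WT replicate 1 was the lowest library, and the other 4 lay between 126 and 151 CPM.

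The ratio of RGC1 in M475R to the deletion was 0.953 (95% interval 0.562 to 1.76, adjusted p = 0.951), and that of M475R to WT was 1.61 (0.894 to 3.25, adjusted p = 0.259). The log2 fold change of RGC1 in M475R against WT was 0.69, but 0.008 without WT replicate 1 and 1.23 without WT replicate 2. For the deletion against WT, which asks whether the paralog rises when ASK10 is lost, the ratio was 1.69 (0.715 to 4.12) and the log2 fold change 0.76 ± 0.57 (SE), with an adjusted p of 0.77. That estimate rested on WT replicate 1, since the ratio was 2.47 (0.842 to 8.78) against WT replicate 1 and 1.04 (0.377 to 3.32) against WT replicate 2. The interval leaves both a small fall and a 4.12-fold rise of RGC1 within counting error.

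The paralogs can be separated in these counts. In the S288C reference (assembly R64), whose coding lengths of 3441 bases for ASK10 and 3252 for RGC1 equal those in the deposited tables, the aligned coding sequences were identical at 64.8% of 3007 bases. Their longest identical run was 18 bases, and 0 windows of 25 bases from either gene occurred elsewhere in the genome. FPS1 (2010 bases in both sources) had 11 of 1986 such windows elsewhere. The 0 counts of ASK10 beside 14 counts of RGC1 in the deletion library show no reads of the paralog assigned to the deleted gene.

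Within a library, the share of a gene pair's counts does not depend on scaling. ASK10 took 53.9% of the ASK10 and RGC1 counts in M475R replicate 1 (exact Clopper-Pearson 95% interval 50.9 to 57.0, 1051 counts) and 28.6% in M475R replicate 2 (8.39 to 58.1, 14 counts). It took 0% in the deletion library (up to 23.2, 14 counts), and 50.0% (18.7 to 81.3, 10 counts) and 53.8% (25.1 to 80.8, 13 counts) in WT replicates 1 and 2. The paralogs were thus read about equally in M475R replicate 1 and in both WT libraries, and M475R replicate 2 had fewer ASK10 than RGC1 counts within a wide interval. Summed over both paralogs, the level was 275 CPM (258 to 292) and 211 CPM (115 to 354) in M475R, 133 CPM (72.8 to 223) in the deletion, and 108 CPM (51.6 to 198) and 276 CPM (147 to 472) in WT. The summed level in the deletion was below that of M475R replicate 1 and between those of the WT libraries.

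Per length, the channel gene had the highest value of the 3 in every library, but the order was resolved beyond counting error in only some of them. In the authors' FPKM, which divides by gene length and library depth, M475R replicate 1 gave 63.1 for FPS1 (counting interval 57.8 to 68.8), 40.03 for ASK10 (36.8 to 43.5) and 36.2 for RGC1 (33.0 to 39.6). FPS1 lay above both beyond counting error there, while the intervals of ASK10 and RGC1 overlapped. Among the 6032 listed genes in that library, 56.1% had a lower FPKM than FPS1, 39.7% a lower one than ASK10 and 36.3% a lower one than RGC1. Over the other libraries that share was 54.4% to 78.9% for FPS1 and 23.0% to 44.1% for RGC1, and for ASK10 it was 21.9% to 46.3% outside the deletion library.

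The FPKM of FPS1 was 85.6 in M475R replicate 2 (44.3 to 150), against 43.6 for RGC1 (20.9 to 80.2), which overlapped it, and 16.5 for ASK10 (4.49 to 42.2), which did not. The deletion library gave 134 for FPS1 and 36.9 for RGC1, with intervals that did not overlap (90.9 to 190 and 20.2 to 62.0). WT replicate 1 gave 54.5, 15.1 and 14.3 FPKM for FPS1, RGC1 and ASK10, and WT replicate 2 gave 78.8, 36.1 and 39.8 FPKM. In both WT libraries the intervals of neighbouring genes in this order overlapped, so their order is not resolved at this depth.

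FPS1, the channel gene, stood lower in M475R than in the deletion library, and in M475R its level did not differ from WT beyond counting error. It had 516 and 12 counts in M475R replicates 1 and 2, 31 counts in the deletion library, and 11 and 8 counts in WT replicates 1 and 2. The levels were 135 CPM (123 to 147) and 181 CPM (93.3 to 316) in M475R, 295 CPM (200 to 419) in the deletion, and 118 CPM (59.1 to 212) and 170 CPM (73.4 to 335) in WT. The deletion library was the highest of the 5, and M475R and WT overlapped.

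FPS1 stood at 0.46 times the deletion level in M475R, with a 95% interval of 0.32 to 0.684. It was called lower (log2 fold change -1.12 ± 0.29, SE, adjusted p = 0.00313), as were 6.19% of 2909 genes in that comparison. Against the deletion library, M475R replicate 1 gave a ratio of 0.457 (0.318 to 0.68) and M475R replicate 2 one of 0.613 (0.287 to 1.23). Both lay on the same side, but the call was lost without M475R replicate 1 (-0.66, adjusted p = 0.575) and with a biological coefficient of variation fixed at 20% (adjusted p = 0.496). Over 9 alternatives the adjusted p ranged between 0.00334 and 0.575. In the deletion, FPS1 stood at 2.17 times WT (1.19 to 4.07), a log2 fold change of 1.12 ± 0.41 (SE) that did not pass (adjusted p = 0.289). This ratio was 2.49 (1.22 to 5.49) against WT replicate 1 and 1.73 (0.78 to 4.37) against WT replicate 2. The comparisons share the single deletion library. The tested genes around FPS1 on chromosome XII lay mostly on the same side as FPS1 in both comparisons.

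M475R and WT had nearly the same FPS1 level, with a ratio of 0.999 (0.633 to 1.67, adjusted p = 0.999). The interval limits any difference to between 0.633 and 1.67 times WT as far as counting error goes. Against single WT libraries, M475R replicate 1 stood at 1.14 (0.631 to 2.3) and 0.793 times (0.399 to 1.85), and M475R replicate 2 at 1.53 (0.616 to 3.82) and 1.06 times (0.399 to 3.0). Relative to RGC1, FPS1 took 51.6% of the FPS1 and RGC1 counts in M475R replicate 1 (48.5 to 54.7) and 54.5% in M475R replicate 2 (32.2 to 75.6). It took 68.9% in the deletion (53.4 to 81.8), and 68.8% (41.3 to 89.0) and 57.1% (28.9 to 82.3) in WT. All of these intervals overlapped, that of M475R replicate 1 with that of the deletion by a narrow margin.

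**Figure D2:**
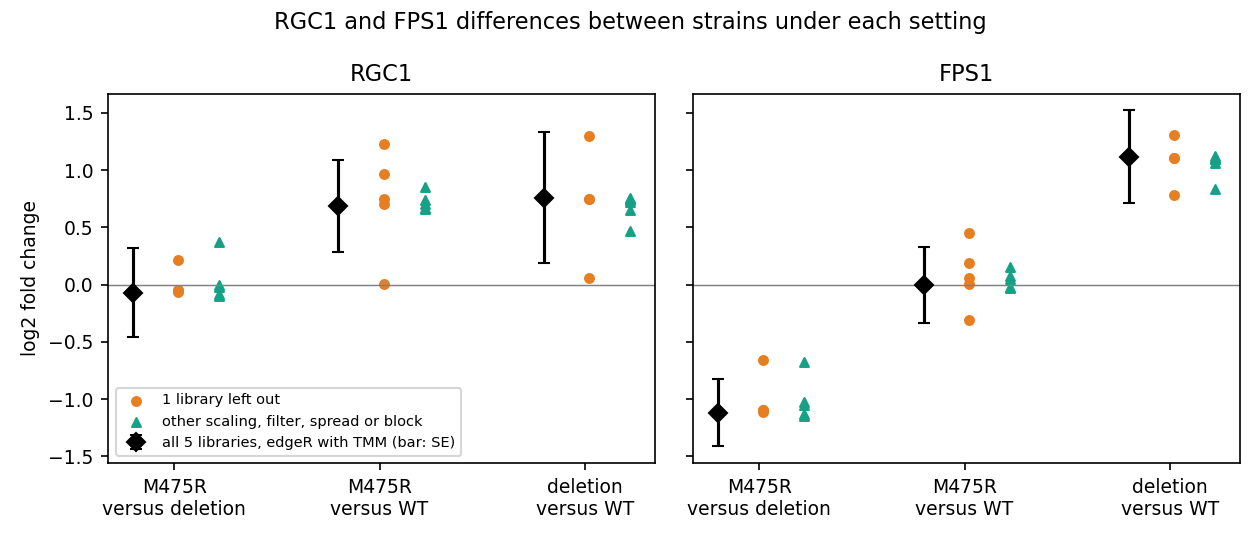
Log2 fold changes of RGC1 and FPS1 in the 3 comparisons: diamonds are the fit of all 5 libraries with its SE, circles the same fit with 1 library left out, and triangles other settings. FPS1 stays below 0 for M475R versus deletion (-1.12 with all libraries, -0.66 without M475R replicate 1) and scatters around 0 for M475R versus WT.

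In the authors' deposited tables of single library pairs, the log2 ratio of FPS1 in M475R over the deletion was -1.08 for M475R replicate 1 and -0.64 for M475R replicate 2. For the deletion over WT replicate 1 the authors' deposited tables gave 1.29 for RGC1 and 1.30 for FPS1. For the deletion over WT replicate 2 the authors' deposited tables gave 0.03 for RGC1 and 0.76 for FPS1. Of the 6 filtered lists among the authors' deposited tables, ASK10 was on 1, that of M475R replicate 1 against the deletion with 85 genes, while RGC1 and FPS1 were on none. The log2 ratio of 15.3 for ASK10 in the authors' deposited table rests on an FPKM of 0.001 written for a gene at 0, and is not a measured fold.

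The genes on either side of FPS1 differed in the same direction as FPS1 in the deletion library. FPS1 lies on chromosome XII with 21 protein-coding genes before it toward the left end, in the gene order of assembly R64. Of the 10 genes on each side, 14 were tested. For M475R versus deletion all 14 lay below 0 (median log2 fold change -1.24, against 0.01 over all tested genes), and 7 were called lower by edgeR, where 6.19% of 2909 genes were, and 4 with the variation fixed at 20%. DESeq2 gave an adjusted p for 3 of the 14 in that comparison and called 2. For deletion versus WT 13 of 14 lay above 0 (median 0.90, against -0.002 over all tested genes) and 4 were called higher by edgeR, where 0.481% of 2909 genes were. The fixed variation left 1, YBT1, and DESeq2 called 1, RPL8B, so no neighbour was called under both. For M475R versus WT, 4 lay above 0 and 10 below (median -0.33), and 2 were called lower, where 10.1% of 2909 genes were.

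RPL8B, next to FPS1 on the left and coding for a protein of the large ribosomal subunit, had 8739 and 151 counts in M475R, 639 in the deletion, and 330 and 155 in WT. It stood at 0.376 times the deletion level in M475R (0.347 to 0.408) and at 1.75 times WT in the deletion (1.56 to 1.98, adjusted p = 4.09e-12). The RPL8B call for deletion versus WT was lost with the variation fixed at 20%. RPL8A is a near-identical copy of RPL8B, so reads may have been exchanged between them. SDH2, a succinate dehydrogenase subunit gene with 1 gene between it and FPS1 on the right, had 443 and 14 counts in M475R, 55 in the deletion, and 13 and 10 in WT. Its level in the deletion was 3.18 times WT (1.92 to 5.43, adjusted p = 0.000348, but 0.441 without WT replicate 1). The adjacent gene ATG10 had too few counts to be tested.

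The others called higher in the deletion than in WT were YBT1 (ratio 3.9, 2.49 to 6.27), a vacuolar ABC transporter gene, and VPS13 (2.86, 1.65 to 5.14), a lipid transfer protein gene. For VPS13 the call rested on both WT libraries, with an adjusted p of 0.311 when WT replicate 1 was left out and 0.0885 when WT replicate 2 was. Without WT replicate 1, 2 of 12 tested neighbours were called higher, and all 12 lay above 0. Without M475R replicate 1, 4 of 11 were called lower for M475R versus deletion, and all 11 lay below 0.

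The shift along the chromosome ended to the right of FPS1. In stretches of the gene order chosen after the values were seen, the median log2 fold change of deletion versus WT was 0.88 over the 8 tested genes among the 10 before FPS1 and 1.20 over the 6 tested among the 10 after it. It was 0.85 over 6 tested genes at positions 11 to 20 after FPS1, -0.11 over 10 tested genes at positions 21 to 40, and -0.02 over the 225 tested genes of the rest of chromosome XII. FPS1 itself, at 1.12, lay within the range of its neighbours (-0.58 to 1.96). Gene copy number was not measured here. A difference in gene dose at this end of chromosome XII in the deletion strain and a difference in FPS1 transcription therefore cannot be told apart in the FPS1 ratios of 0.46 and 2.17.

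The genes around the other members showed no such shift. Of 12 tested neighbours of ASK10 on chromosome VII, 0 were called for deletion versus WT by edgeR (median log2 fold change -0.26, 4 above and 8 below 0), and 0 for M475R versus deletion (median -0.03). Over all tested genes 0.688% and 10.3% were called in these comparisons, so 0 of 12 says little by itself. An unadjusted p under 0.05 was reached by 2 and 1 of the 12, and DESeq2 called 0 of 12 and 0 of the 3 to which it gave an adjusted p. ESP1, the separase gene directly beyond ASK10, had 339 and 4 counts in M475R, 9 in the deletion, and 10 and 6 in WT (deletion versus WT adjusted p = 0.944). TPC1, on the other side, had 71 and 1 counts in M475R, 1 in the deletion, and 0 and 1 in WT, and was not tested. Of 12 tested neighbours of RGC1 on chromosome XVI, 0 were called for either comparison by edgeR (median 0.003 for deletion versus WT), and 1 in each had an unadjusted p under 0.05. DESeq2 called 0 of 12 for deletion versus WT and 0 of 2 with an adjusted p for M475R versus deletion. For M475R versus WT, edgeR called 1 of the 12 neighbours of ASK10 and 2 of the 12 of RGC1 lower. Over all tested genes 10.1% were called lower there.

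**Figure D3:**
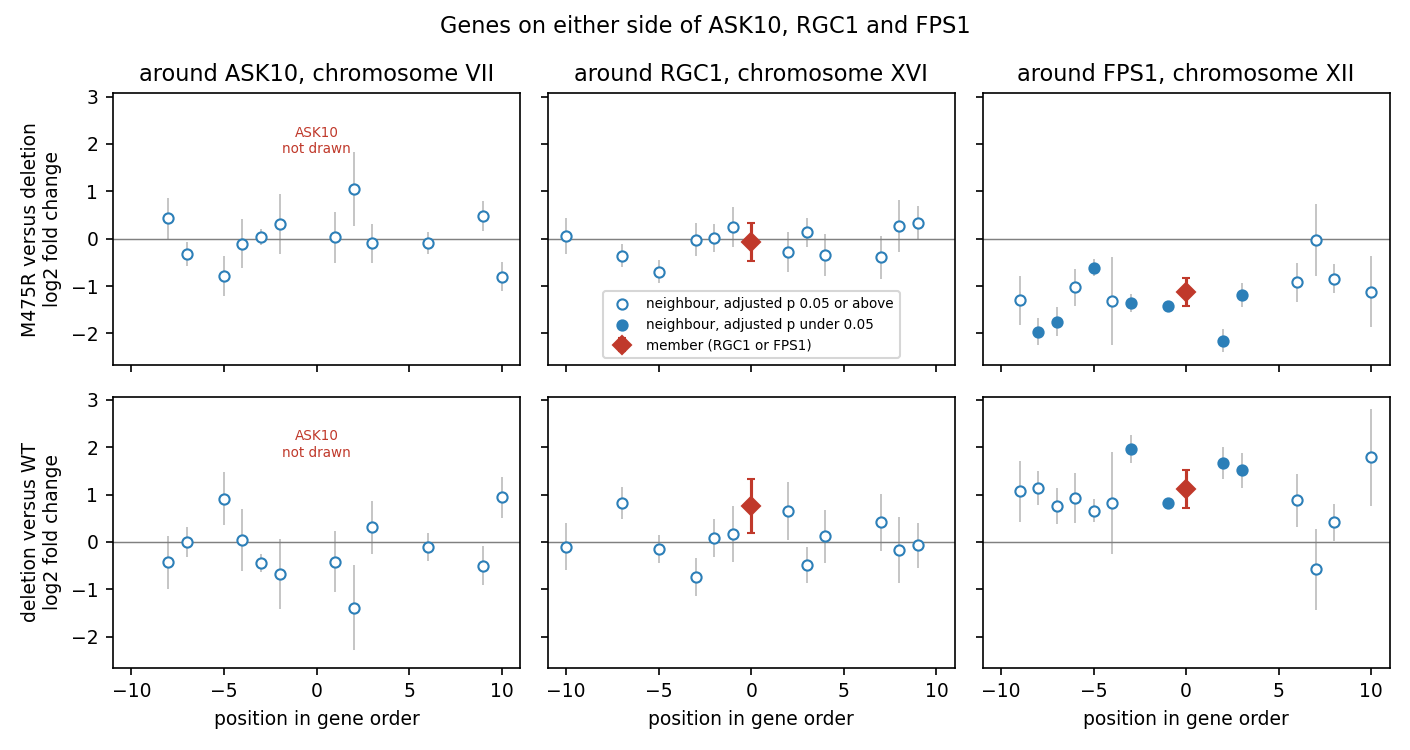
Log2 fold changes (bars: SE) of the tested genes among the 10 on each side of ASK10, RGC1 and FPS1, by position in the gene order, for M475R versus deletion (top) and deletion versus WT (bottom); filled points had an adjusted p under 0.05 and diamonds are RGC1 and FPS1. All 14 neighbours of FPS1 lie below 0 in the top panel and 13 of 14 above 0 in the bottom one, while those of ASK10 and RGC1 lie on both sides.

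Profiles across the 5 libraries were compared by the Euclidean distance between log2 CPM values (prior count 2), each gene centred on its mean, over 2908 other tested genes. This is a description in which counting noise weighs heavily. The gene closest to FPS1 was YLL054C (distance 0.219, median over all genes 1.3), 9 positions away on the same chromosome, with 270 and 7 counts in M475R, 19 in the deletion, and 7 and 5 in WT. PRP19 (0.264), 6 positions away, and UME6 (0.308), on another chromosome, came next. For RGC1 the closest were PBA1 (0.247), LPL1 (0.253) and ERG24 (0.267), which are all of a similarly low level.

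For ASK10 the closest were URA3 (distance 2.53, median over all genes 5.03), RPL8A (2.57) and RIM11 (2.72), genes that were low in the deletion library. URA3, the orotidine phosphate decarboxylase gene often used as a selection marker, had 1380 and 1690 CPM in M475R, 190 CPM in the deletion, and 1250 and 1530 CPM in WT. RPL8A had 1060 and 1250 CPM in M475R, 152 CPM in the deletion, and 1450 and 1300 CPM in WT. For deletion versus WT the log2 fold change was -2.82 ± 0.28 (SE) for URA3 and -3.20 ± 0.29 for RPL8A. For RIM11, a protein kinase gene with 1 count in the deletion, it was -2.58 ± 1.46. These genes were picked for profiles like that of ASK10, so their low values in the deletion follow from the choice. Distances to ASK10 are set largely by its 0 counts in the deletion library, whose log2 value rests on the prior count of 2 that was added.

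The other channels and glycerol carriers were mostly too low to test. FPS1 and AQY2 were the 2 tested genes of 7. AQY2, an aquaporin gene 7 positions from FPS1, had 356 and 7 counts in M475R, 33 in the deletion, and 17 and 9 in WT. It stood at 0.297 times the deletion level in M475R (0.208 to 0.438, adjusted p = 1.4e-06, but 0.0895 without M475R replicate 1) and at 0.502 times WT (0.337 to 0.779, adjusted p = 0.0175). The call against WT was lost without M475R replicate 1 (0.51), WT replicate 1 (0.442) or WT replicate 2 (0.127). The glycerol/proton symporter gene STL1 had 32 and 0 counts in M475R, 0 in the deletion, and 2 and 0 in WT. AQY1, AQY3, GUP1 and GUP2 were not tested either.

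Transcripts of the signalling pathways around the channel gave 2 calls in all, both for M475R versus WT, a comparison in which 18.6% of all tested genes were called. Of 14 tested genes among 22 listed genes of HOG pathway signalling, 1 was called lower for M475R against WT, where 10.1% of all tested genes were (median log2 fold change 0.06, against 0.01 over all). For M475R versus deletion and deletion versus WT, 0 were called by edgeR, where 10.3% and 0.688% of all tested genes were. An unadjusted p under 0.05 was reached by 1 and 0 of the 14. DESeq2 called 0 of the 2 and 14 genes to which it gave an adjusted p there. The called gene was MSB2, an osmosensor of the Sho1 branch, at 0.619 times WT (0.483 to 0.806, adjusted p = 0.00445), and its call was lost without M475R replicate 1 (0.689) or WT replicate 1 (0.652). MSB2 was also not called by DESeq2 (adjusted p = 0.48) or with the variation fixed at 20% (0.577). Other scalings, no filter and a replicate term kept the call. HOG1 itself had 1200 and 23 counts in M475R, 28 in the deletion, and 22 and 13 in WT (M475R versus WT ratio 1.26, 0.898 to 1.81). Of 6 HOG pathway transcription factor genes 2 were tested, MSN2 (ratio 1.32, 0.846 to 2.17) and MSN4 (0.808, 0.498 to 1.4), and neither passed. HOT1 was not tested and had 315 and 1 counts in M475R, 8 in the deletion, and 2 and 0 in WT. Its ratio of M475R to WT was 5.68 (1.56 to 47.1). Without the filter, 1 of the 6 was called higher for M475R versus WT, as were 207 of 6029 genes.

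In the cell wall integrity pathway, which responds to cell wall stress and low osmolarity, 0 of 10 tested genes were called in any comparison by edgeR as fitted here. Over all tested genes 10.3% were called for M475R versus deletion, 18.6% for M475R versus WT and 0.688% for deletion versus WT. With 10 genes, 0 calls cannot be told apart from these shares. DESeq2 called 0 of 2 with an adjusted p for M475R versus deletion, 0 of 2 for M475R versus WT and 0 of 10 for deletion versus WT. An unadjusted p under 0.05 was reached by 1 gene for M475R versus deletion, 2 for M475R versus WT and 0 for deletion versus WT. RHO1, the GTPase gene of the pathway, stood at 1.37 times WT in M475R (1.02 to 1.89, adjusted p = 0.129). Among 6 tested genes of TORC2 and the Ypk kinases, of which Ypk1 phosphorylates Fps1, 1 was called higher for M475R versus WT, where 8.46% of all tested genes were. For M475R versus deletion and deletion versus WT, 0 of the 6 were called by edgeR, and 0 and 2 had an unadjusted p under 0.05. DESeq2 called 0 of 6 for deletion versus WT and gave no adjusted p for the other. The called gene, TOR2, codes for the kinase of TORC2 and had 442 and 6 counts in M475R, 11 in the deletion, and 3 and 1 in WT. Its ratio of M475R to WT was 4.03 (1.56 to 14.8, adjusted p = 0.00384), and the call was lost without WT replicate 1 (0.243) or WT replicate 2 (0.0631).

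Among partners described for Ask10, SKN7 was the 1 tested gene of 5, with 490 and 8 counts in M475R, 14 in the deletion, and 17 and 9 in WT (smallest adjusted p 0.24). The cyclin C gene SSN8 had 85 and 0 counts in M475R, 3 in the deletion, and 1 and 2 in WT. Fps1 also lets arsenite into the cell. Of 2 tested genes of arsenic handling, 1 was called higher in M475R than in WT, where 8.46% of all tested genes were. It was the transcription factor gene YAP1 (1.66, 1.11 to 2.6, adjusted p = 0.0427). That call was lost without M475R replicate 1 (0.666), WT replicate 1 (0.67) or WT replicate 2 (0.0579). DESeq2 (adjusted p = 0.62), the variation fixed at 20% (0.577), DESeq2 size factors, no filter and a replicate term lost it too, while total-count scaling kept it. YCF1, a vacuolar transporter gene, was not called (M475R versus WT ratio 0.889, 0.66 to 1.23).

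The list of glycerol synthesis and breakdown genes also held TPI1, GRE3 and ALD6, which are not specific to glycerol. Most of the tested genes of this list were called higher in M475R. TPI1, GRE3, ALD6, GPP1 and GPP2 were called both against WT and against the deletion. GPD1 and GUT2 were called against WT only, and DAK1 against the deletion only. Of 10 tested genes 7 were higher in M475R than in WT (median log2 fold change 0.67, among genes of which 8.46% were called higher overall), and 6 were higher than in the deletion (median 0.48, where 4.09% were). Without M475R replicate 1, 6 of 9 passed against WT and 0 of 9 against the deletion, and without WT replicate 1, 4 of 10 passed against WT. The variation fixed at 20% left 2 against WT and 0 against the deletion. DESeq2 gave an adjusted p for 6 of the 10 against WT and called 3, and for 4 against the deletion and called 1. GPP2, a glycerol-3-phosphatase gene, stood at 2.58 times the deletion level (1.47 to 5.0, adjusted p = 0.00236, but 0.189 without M475R replicate 1) and at 3.17 times WT (1.84 to 5.96). Of 8 tested among 19 listed osmotic targets of Hog1, which share GPD1, GPP2 and GRE3 with that list, 4 were higher in M475R than in the deletion and 5 were higher than in WT. Without M475R replicate 1, these counts were 1 and 4 of 6. DESeq2 called 0 of the 2 targets to which it gave an adjusted p against the deletion, and 1 of 3 against WT. GRE2, a reductase gene, stood at 2.87 times the deletion level (1.87 to 4.64) and at 3.49 times WT (2.32 to 5.51). CWP1, another target called in both comparisons, had 460 and 9 counts in M475R, 1 in the deletion, and 3 and 0 in WT. Its ratios, 12.7 to the deletion (2.26 to 501) and 5.62 to WT (1.91 to 27.3), rest on these few counts. For deletion versus WT, 0 of the tested genes of either list were called by edgeR, where 0.688% of all tested genes were, or by DESeq2. An unadjusted p under 0.05 was reached by 2 of 10 genes of the glycerol list and 1 of 8 targets. Since a low gene could enter the test through the strain where it was high, these counts do not speak for the untested genes.

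**Figure D4:**
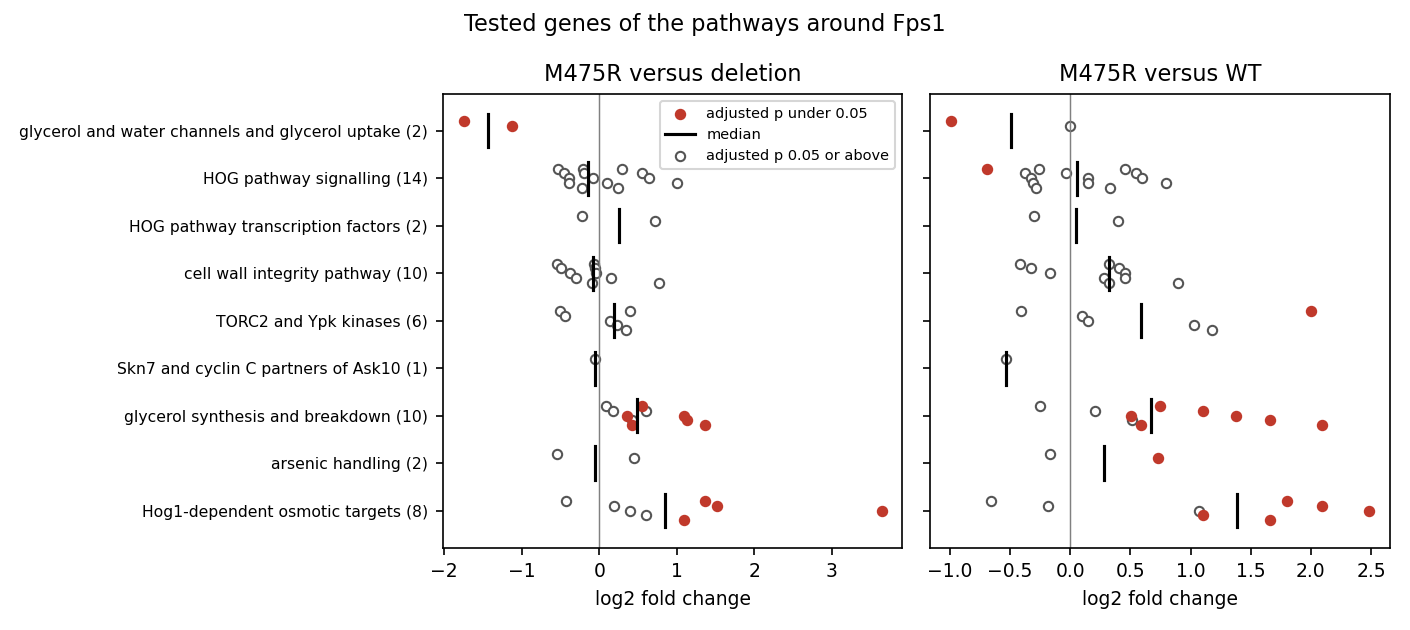
Log2 fold changes of the tested genes of each pathway list, for M475R versus deletion (left) and M475R versus WT (right); the number tested is in parentheses, filled points had an adjusted p under 0.05 and black bars are medians. The HOG, cell wall integrity and TORC2 genes scatter on both sides of 0 with 2 calls in all, both against WT. In the comparison with WT, 7 of 10 genes of the glycerol list are filled, TPI1, GRE3 and ALD6 among them.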

How the data were processed

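The libraries were made by fragmenting mRNA, copying it into cDNA and amplifying it by PCR, per the labels' protocols. The submitters' processing notes name BWA and Bowtie without versions, but how the genes were counted, on which strand and against which build and annotation is not given in the sources used here. Per the file headers, the authors deposited an expected count and an FPKM per gene and library in 7 full pairwise tables, with a log2 ratio and a p-value per pair, and 6 filtered lists. The deposited p-value column was read but not used. A gene at 0 has an FPKM of 0.001. Each library's values were the same in every full table (0 differences), and 20 sample columns of the filtered lists went unused.

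The 534 expected counts that were not whole were rounded, and the tables joined. Of 6032 identifiers, 5515 matched by locus tag the R64 gene table, used for names and gene order only. Counts were tested with edgeR 4.0.16 in R 4.3.3 (TMM, filterByExpr on the 3 groups, quasi-likelihood test, 1 fit of all 5 libraries, 2 residual degrees of freedom, Benjamini-Hochberg adjustment over 2909 genes). The common dispersion was 0.00101, so p-values carry little beyond counting error, and the spread of the single deletion library is taken from the M475R and WT libraries. Ratios are pooled counts over TMM-scaled sizes, with exact conditional intervals. The floor of 3 counts was 0.784 and 45.2 CPM in M475R, 28.5 CPM in the deletion, and 32.3 and 63.8 CPM in WT. Alternatives were DESeq2 1.42.0, other scalings, no filter, a fixed biological coefficient of variation with a likelihood ratio test, a replicate term, and leaving out each library.

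The members and the lists were chosen with earlier results of these data known. Named genes come from the members, list genes called in any comparison or among the 2 highest of their list, neighbours, and the 3 closest profiles. Not every gene among the 2 highest of a list is named. Of the neighbours further than 2 positions away, those named were chosen after their values were seen. Untested channel and partner genes are named to complete their lists, and HOT1 was named after its values were seen.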

Additional observations from a re-analysis of the deposited data

How the results depend on the processing

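Of 132 values recomputed under another setting, 94 kept their direction and their side of the threshold or stayed within the limits set for counts and shares. Counts of called genes were 299 for M475R versus deletion, 540 for M475R versus WT and 20 for deletion versus WT. DESeq2 gave 69, 126 and 4, and a biological coefficient of variation fixed at 20% gave 50, 84 and 3. Leaving out 1 library gave 105 to 313, 176 to 518 and 9 to 17. Of the 299, 119 were higher and 180 lower, a split that became 156 to 145 with total-count scaling. DESeq2 gave no adjusted p for the members in the comparisons with M475R, and genes without one are not in its counts (it gave one to 766, 1104 and 2909 genes). ASK10 in the deletion against WT (log2 fold change -9.15) missed the threshold with DESeq2 size factors (-9.17, adjusted p = 0.0569), without a filter (-9.18, 0.0827), with DESeq2 (-5.78, 1.0), with the fixed variation (-9.20, 0.188), and ranged from -10.2 to -5.83 with 1 library left out (adjusted p up to 0.56). In M475R against the deletion, leaving out 1 library moved ASK10 between 5.3 and 10.2, RGC1 between -0.065 and 0.22, and FPS1 between -1.11 and -0.66, and the fixed variation gave -1.02 for FPS1. In M475R against WT, it moved ASK10 between -0.53 and 1.44, RGC1 between 0.008 and 1.23, and FPS1 between -0.31 and 0.45. There FPS1 was -0.001, but 0.048 with scaling by total counts and 0.074 with the fixed variation. By FPKM, which divides by gene length and weights the M475R libraries equally, the M475R share was 41.4% for ASK10 and 65.1% for FPS1 against RGC1, in place of 53.6% and 51.7%, and without M475R replicate 1 the ASK10 share was 28.6% (range 28.6% to 53.9%). The FPS1 share moved in each M475R library alone (51.6% by counts and 63.6% by FPKM in replicate 1, 54.5% and 66.3% in replicate 2). The cause of the other changes was not tested.

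Deviations of same-numbered M475R and WT libraries had a correlation of -0.027. Since replicates differed by no more than sampling noise, this value cannot show whether the replicate numbers mark anything shared between libraries. With the number as a replicate block, 156 genes were called for M475R versus deletion and 11 for deletion versus WT, and the log2 fold changes were -0.68 for FPS1 (adjusted p = 0.499) and 0.38 for RGC1 in M475R against the deletion, 0.16 for FPS1 in M475R against WT, and -8.92 for ASK10 in the deletion against WT (adjusted p = 0.145). SLT2, the MAP kinase gene of the cell wall integrity pathway, was called higher in M475R against WT with the block (1.24, adjusted p = 0.0469, against 0.152 without it).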
